A study of Mus musculus with 11 samples.

Results

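The basic helix-loop-helix (bHLH) transcription factors of muscle and mesoderm were examined for H3K27me3, the Polycomb mark of repressed genes, in the embryonic mouse forebrain. The group was a fixed list of 10 genes taken to be silent in neural tissue: *Myod1*, *Myog*, *Myf5*, *Myf6*, *Hand1*, *Hand2*, *Mesp1*, *Mesp2*, *Twist1* and *Tcf21*. All 10 were found among the 21755 protein-coding genes annotated on chromosomes 1 to 19 and X. The list itself uses no measured value, but it was chosen with earlier results of these data known. For each gene, the peaks over the gene body and 10 kb of sequence on either side (its window) were compared between brain regions. Covered percent is the share of bases in a window that lies under peaks, and the width is the full length of a peak as deposited.

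The study profiled H3K27me3 by CUT&Tag, in which an antibody guides a transposase to a histone mark, to locate genes repressed in each region. The tissue was dissected from wild-type C57BL/6J embryos, with no transgene, treatment or mutant allele in any group. The 11 samples came from the cortex (CTX, 3 samples) and from the ganglionic eminences, the ventral progenitor domains, divided into a medial (MGE, 2 samples), a caudal (CGE, 3 samples) and a lateral one (LGE, 3 samples). Each reaction started from 100000 nuclei. The study's text places these libraries at E12.5, whereas the sample labels give no age and their shared protocol names both E12.5 and E14.5 embryos. Tissue of a region was pooled from several embryos per the study's methods. Every region but MGE has 2 samples under 1 replicate number, and the extraction protocol speaks of combining nuclei from several regions, while the labels name 1 region per sample. The deposited peaks were called by the authors after merging, and peak calls of single samples were not analysed here. The data are therefore 4 lists, 1 per region, with no replicate value, so that no difference between regions could be tested and none is given with a p-value. The lists held 15384 to 19196 peaks, the fewest in MGE (24.5 Mb) and the most in CGE (32.9 Mb). They carry no read counts, so no counting error can be given for a peak. Sequencing depths stated in the study's methods, summed by region, rank CGE, CTX, LGE and MGE from highest to lowest, the same order as the number of peaks. A longer list covers more of the genome, and the part of depth and list length in a difference between regions was not tested beyond lists made equal in number or in covered bases. The genes that define the regions differed in the direction of their labels in part. *Emx1*, a cortical gene, was covered over 14.7% of its window in CTX and 25.3% to 28.5% in the eminences, and *Nkx2-1*, the MGE determinant, over 42.7% in MGE and 50.3% to 54.3% elsewhere. *Lhx6*, which marks MGE-derived neurons, was not lowest in MGE, with 29.9% there and 26.8% in LGE. Of the region and forebrain genes given here, *Emx1*, *Nkx2-1*, *Lhx6*, *Sox2* and *Gsx2* had a peak over the start in all 4 lists. *Dlx1* had one in CGE and CTX, and *Neurod6* and *Dlx2* in none. Over the 4 lists, the covered percent was 32.3% (CTX) to 40.0% (MGE) at *Sox2* and 42.3% (MGE) to 61.8% (CTX) at *Gsx2*. It was 41.3% (LGE) to 56.4% (CTX) at *Dlx1* and 41.9% (MGE) to 49.1% (CTX) at *Dlx2*. At *Neurod6* it was 4.33% (CTX) to 4.96% (CGE). For the eminence genes *Gsx2*, *Dlx1* and *Dlx2*, CGE lay nearest to CTX, with 57.7%, 56.3% and 48.6%.

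As background, bHLH factors bind the E-box, a short DNA motif, as dimers. The tissue-specific members pair with the broadly expressed E proteins, and Id proteins block this by binding E proteins without binding DNA. MyoD, Myf5, Mrf4 (the product of *Myf6*) and myogenin commit and differentiate skeletal muscle, the Mesp factors act in early mesoderm and somites, and Hand, Twist and Tcf21 factors act in heart, limb, cranial mesenchyme and visceral mesoderm. Relatives of the same family, the proneural factors, specify neurons. H3K27me3 is laid down by Polycomb repressive complex 2, which is recruited to CpG-rich sequence, and it commonly covers developmental regulators of other lineages. Messenger RNA was not analysed here. In dissected tissue, a mark in fewer cells and less of the mark per cell cannot be told apart.

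The sequences just upstream of 5 of the gene starts differ in base composition, from the CpG-rich *Twist1* and *Hand2* to the CpG-poor *Myf5*. Each is the sense strand, 5′ to 3′, and ends at the base before the annotated gene start. CpG dinucleotides are in capitals. The sequences are from the RefSeq promoter table of GRCm38.p6, which held 7 of the 10 genes. *Myod1*, *Myf6* and *Hand1* had no entry. The positions are chr12:33957421-33957670 (plus strand) for *Twist1*, chr8:57320733-57320982 (plus) for *Hand2*, chr7:79810477-79810726 (plus) for *Mesp2*, chr1:134289754-134289988 (plus) for *Myog* and chr10:107486135-107486384 (minus) for *Myf5*.
Twist1: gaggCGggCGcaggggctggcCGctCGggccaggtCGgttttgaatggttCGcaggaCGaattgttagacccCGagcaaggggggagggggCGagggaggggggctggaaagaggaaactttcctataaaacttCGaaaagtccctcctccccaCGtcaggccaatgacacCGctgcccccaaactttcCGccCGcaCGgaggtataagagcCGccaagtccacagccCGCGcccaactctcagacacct
Hand2: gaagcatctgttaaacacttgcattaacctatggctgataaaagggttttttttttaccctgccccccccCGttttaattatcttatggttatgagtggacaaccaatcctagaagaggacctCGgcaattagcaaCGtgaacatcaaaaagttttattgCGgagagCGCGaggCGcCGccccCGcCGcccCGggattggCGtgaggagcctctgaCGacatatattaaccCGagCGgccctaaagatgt
Mesp2: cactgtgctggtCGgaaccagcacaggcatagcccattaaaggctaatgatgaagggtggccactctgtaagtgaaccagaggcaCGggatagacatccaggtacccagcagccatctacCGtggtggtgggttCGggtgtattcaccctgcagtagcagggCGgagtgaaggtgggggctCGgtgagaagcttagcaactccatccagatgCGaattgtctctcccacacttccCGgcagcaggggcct
Myog: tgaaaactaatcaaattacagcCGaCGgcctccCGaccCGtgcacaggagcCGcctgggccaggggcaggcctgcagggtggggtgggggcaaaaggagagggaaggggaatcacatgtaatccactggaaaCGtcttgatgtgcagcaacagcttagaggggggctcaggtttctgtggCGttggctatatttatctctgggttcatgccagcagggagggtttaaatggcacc
Myf5: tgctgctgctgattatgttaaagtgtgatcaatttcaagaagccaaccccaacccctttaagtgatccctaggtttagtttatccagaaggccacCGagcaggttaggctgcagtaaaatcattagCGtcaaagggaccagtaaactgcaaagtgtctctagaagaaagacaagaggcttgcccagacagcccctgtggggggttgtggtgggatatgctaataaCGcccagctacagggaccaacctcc

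The printed bases of *Twist1* held 18 CpG dinucleotides and those of *Hand2* held 15, against a median of 6 over the 250 bases upstream of the gene start in 32851 mouse promoters. At least as many were present in 21.7% and 27.3% of all promoters, respectively. *Mesp2* held 8 and *Myog* 7, close to the median, and *Myf5* held 3, a number reached by 71.0% of promoters. The *Twist1* and *Mesp2* stretches lay wholly under peaks in all 4 lists, that of *Hand2* in all lists but CGE, and those of *Myog* and *Myf5* under none. Among the entries not printed, *Tcf21* held 5 CpG dinucleotides in 250 bases and *Mesp1* 2, fewer than *Myf5*. Their bases upstream of the gene start lay wholly under peaks in all 4 lists. The E-box motif CANNTG reads the same on both strands and was present in 66.2% of all promoters. Among the 5 genes, counted over 250 bases, it was found 2 times each in *Hand2* and *Myog* and 1 time in *Mesp2*. For *Myog*, 235 bases are printed, and these hold 1 of its 2 matches. TATAAA, searched on both strands, was found 1 time in *Twist1* and in 12.4% of all promoters. None of the 5 stretches held both motifs, and a match is a match of letters only.

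Peaks covered the start of most of these genes in every region. The annotated 5′ end of *Myod1*, *Hand1*, *Mesp1*, *Mesp2*, *Twist1* and *Tcf21* (6 of 10) lay under a peak in all 4 lists, compared with 14.5% of all protein-coding genes. That of *Hand2* was covered in MGE, LGE and CTX but not in CGE, and those of *Myog*, *Myf5* and *Myf6* were covered in no list. By list, the start was covered for 7 members in MGE, where 19.2% of all genes were, for 6 in CGE (20.9%), for 7 in LGE (20.8%) and for 7 in CTX (22.8%). At least 1 covered base was present in all 4 lists in the windows of 8 members, all but *Myf5* and *Myf6*, compared with 36.1% of all genes.

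**Figure D1:**
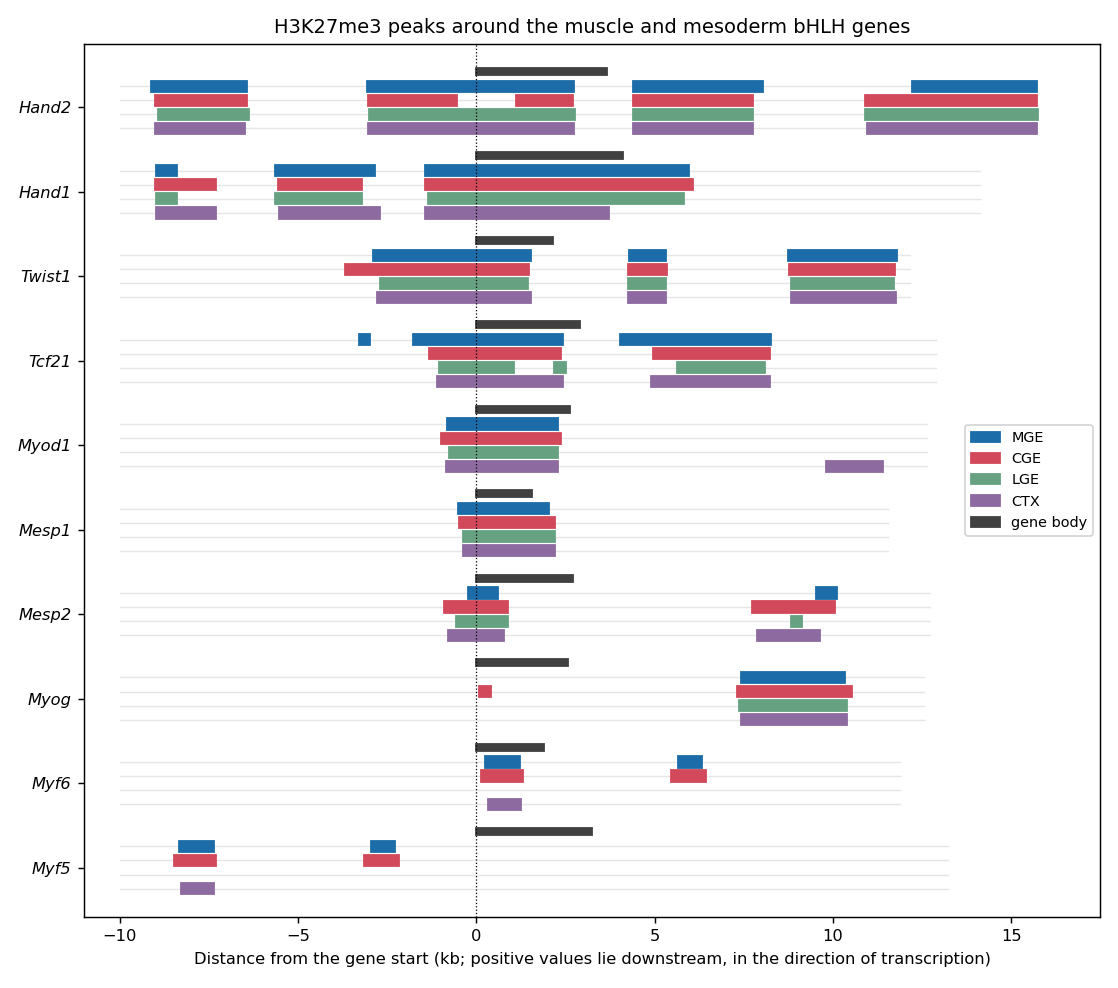
Peaks in the 4 lists around each of the 10 genes, drawn to scale along the distance from the gene start in kb, with transcription to the right. Colored bars are peaks of MGE, CGE, LGE and CTX from top to bottom, the dark bar is the gene body and the grey lines show the window. Peaks cross the start (dotted line) of 6 genes in every list, while *Myog*, *Myf6* and *Myf5* have none there.

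With 10 kb on either side, the covered percent ordered the genes into a high and a low set. *Hand2*, *Hand1*, *Twist1* and *Tcf21* had means over the 4 lists of 58.4%, 43.8%, 38.6% and 30.04%. The other 6 had means between 5.11% and 15.8%. Median covered percent over the 10 members was 13.3% (MGE), 16.9% (CGE), 13.4% (LGE) and 17.8% (CTX), and over all protein-coding genes it was 0 in each list, with means of 2.67%, 3.36%, 2.86% and 3.03%. The members are short genes, and the 7693 genes with windows of at most 30 kb also had a median of 0, with means of 3.81%, 4.70%, 4.04% and 4.20%. The values of *Hand2* did not overlap those of any other member over the 4 lists. The lowest *Tcf21* value (21.3%, LGE) lay just above the highest value of the lower 6 (20.9%, *Myod1* in CTX). This separation of the lower 6 did not hold with windows of 2 or 20 kb. The range of *Hand1* overlapped that of *Twist1*, and *Twist1* that of *Tcf21*. Lower down, *Myod1* overlapped *Myog*, *Mesp1* lay below both, and the wide range of *Mesp2* overlapped all of these as well as *Myf6* and *Myf5*.

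**Figure D2:**
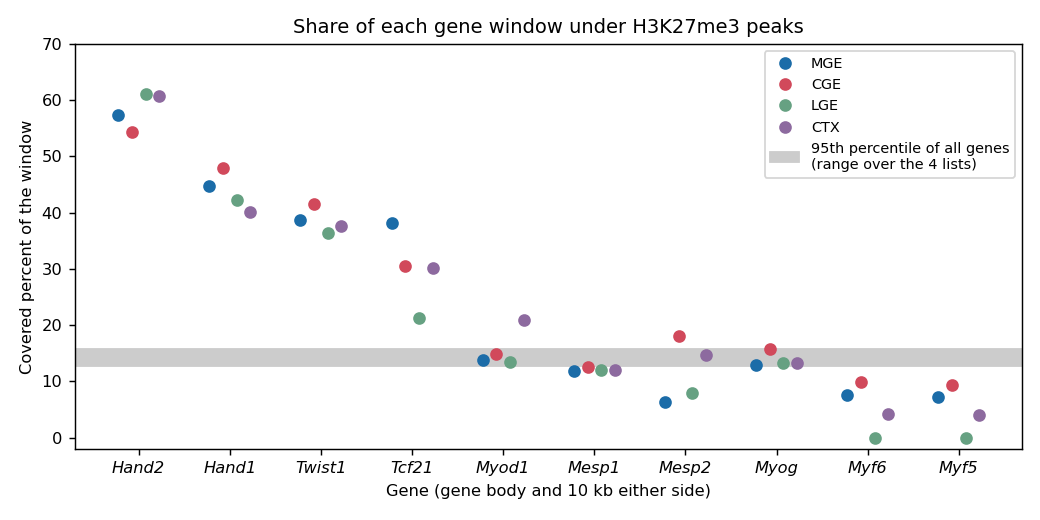
Covered percent of the window (vertical axis) for each gene, with 1 point per list. The grey band spans the 95th percentile of all protein-coding genes over the 4 lists, 12.7% to 15.7%. *Hand2*, *Hand1*, *Twist1* and *Tcf21* sit above it in every list, and *Myf6* and *Myf5* reach 0 in LGE.

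The 4 myogenic factors differed from one another in where the mark lay. *Myod1* (chr7:46376474-46379099, plus strand), the factor that can convert fibroblasts to muscle, carried a peak over its start whose width was 3122, 3373, 3057 and 3132 bases in the MGE, CGE, LGE and CTX lists, respectively. Counted from the gene start, this peak began between -1005 and -774 and ended between 2282 and 2367, so that it covered the promoter and most of the gene body, exons and introns included. Its fold enrichment over the local background was 3.27 to 3.71, and its -log10 q-value ranked at or above 97.9% to 98.9% of all peaks of its list. The covered percent was 13.5% to 14.9% in the eminences (MGE 13.8%, CGE 14.9%, LGE 13.5%) and 20.9% in cortex. The higher CTX value came from an additional peak of 1599 bases beginning 9797 bases downstream of the start, outside any annotated gene, with a -log10 q-value of 2.83, at or above 39.3% of the peaks in that list.

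*Myog* (chr1:134289989-134292548, plus strand), which drives terminal differentiation, had a covered percent of 12.9%, 15.8%, 13.3% and 13.2% in MGE, CGE, LGE and CTX, a span of 2.91 points. Nearly all of it lay away from the gene. A single peak of 2905 to 3229 bases beginning 7312 to 7427 bases downstream of the start was present in each list, wholly within *Ppfia4*, a gene on the opposite strand. Between 1702 and 1877 of its bases were exonic in *Ppfia4*, and no annotated transcript of that gene starts under it. *Myog* itself held 1 peak in 1 list, of 332 bases from 75 to 406 in CGE, with a -log10 q-value of 1.50, at or above 7.996% of the CGE peaks. The window value of *Myog* is thus not a value of the gene or its promoter.

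*Myf5* and *Myf6* (chr10:107482908-107486134 and chr10:107492853-107494737, both minus strand) are neighbours with starts 8603 bases apart, and their windows share every peak found, so they do not count as separate observations. *Myf5* is among the first myogenic factors switched on in the embryo, and *Myf6* acts in part later, in differentiated fibers. In the order MGE, CGE, LGE and CTX, the covered percent was 7.59%, 9.87%, 0 and 4.24% for *Myf6* and 7.15%, 9.30%, 0 and 3.99% for *Myf5*. One peak lay inside the *Myf6* body, from 250 to 1231 in MGE, 119 to 1291 in CGE and 322 to 1248 in CTX, with fold enrichments of 3.81, 3.70 and 3.26. A further peak of 679 bases in MGE and 987 bases in CGE lay between the genes, upstream of *Myf5*. The LGE list held no peak in either window. These peaks were of modest rank, with -log10 q-values of 2.54 to 6.91, at or above 38.4% to 59.9% of the peaks in their lists, and nothing covered the *Myf5* body or start in any list.

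The mesodermal pair *Mesp1* and *Mesp2* lie close together on chromosome 7 and differed in strength and in stability over the lists. *Mesp1* (chr7:79792241-79793788, minus strand), which marks early cardiac mesoderm, had a single peak that covered the whole gene in each list and measured 2536 bases (MGE), 2694 (CGE), 2582 (LGE) and 2603 (CTX). The covered percent was 11.8%, 12.5%, 11.98% and 12.1%, the narrowest span of the 10 genes at 0.733 points. Its fold enrichment of 3.64 to 4.09 and its -log10 q-value of 58.3 to 153, at or above 98.1% to 99.6% of the peaks in its lists, were the highest among the peaks over member starts in MGE, CGE and LGE. In CTX they were nearly equalled or passed, since *Myod1* had a -log10 q-value of 85.3 against 84.7 and *Mesp2* a fold enrichment of 3.645 against 3.637.

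*Mesp2* (chr7:79810727-79813439, plus strand), which sets the segment boundaries of somites, was covered least in MGE (6.30% of its window) and LGE (7.86%) and most in CTX (14.6%) and CGE (18.1%). The peak over its start was narrowest in MGE (857 bases), wider in LGE (1462) and CTX (1554) and widest in CGE (1793), a ratio of widest to narrowest of 2.09. Its -log10 q-values were 3.62 to 6.22, at or above 52.3% to 63.4% of the peaks. A second, intergenic peak lay downstream, from 7733 to 10053 in CGE and 7863 to 9623 in CTX, but of only 575 bases in MGE and 324 bases in LGE. With -log10 q-values of 1.31 to 2.43, this second peak was weak in each list, and the regions differed in the width of both peaks. Between *Mesp1* and *Mesp2*, no peak was called in the bases shared by their windows. The peaks of *Mesp1* shared 88.2% to 98.8% of their bases between pairs of lists (bases under both divided by bases under either), and those of *Mesp2* 25.1% to 80.6%.

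*Hand1* and *Hand2*, regulators of heart, limb and neural crest derivatives, carried the broadest coverage. *Hand1* (chr11:57828705-57832818, minus strand) was covered over 44.7%, 47.9%, 42.3% and 40.2% of its window in the MGE, CGE, LGE and CTX lists. The peak over its start was 7392, 7506, 7181 and 5157 bases wide, and *Hand1* was the 1 member whose widest peak reached 5 kb in all 4 lists, compared with 1.08% of all genes. The upstream edge of this peak moved by only 78 bases between lists, from -1442 to -1364. The downstream edge lay at 3714 in CTX, within the gene, and between 5816 and 6068, past its end, in the eminences. Additional peaks lay upstream at about the same positions in every list, without an annotated gene under them. With peaks less than 3 kb apart joined, *Hand1* lay in a domain of 14798 to 15079 bases in the eminences and of 12698 bases in cortex.

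*Hand2* (chr8:57320983-57324633, plus strand) had the highest covered percent, with 54.3% in CGE, 57.4% in MGE, 60.7% in CTX and 61.2% in LGE, at or above 99.7% to 99.9% of all genes. The peak over its start was 5786, 5771 and 5792 bases wide in MGE, LGE and CTX, with edges that differed by 55 bases upstream (-3061 to -3006) and 40 bases downstream (2724 to 2764). In CGE the outer edges were nearly the same, at -3057 and 2714, but the stretch was called as 2 peaks with the bases from -542 to 1097 between them uncovered, the gene start included. Joined across gaps under 3 kb, the domains were 11095, 10809, 10758 and 10806 bases wide, and the start of *Hand2* was then covered in all 4 lists. Fold enrichment of the start peak was low, 1.75 to 1.90, at or above 2.75% to 5.10% of the peaks, as it was for *Hand1* (1.59 to 1.74). Much of this sequence also belongs to *Hand2os1*, a transcript on the opposite strand that overlaps *Hand2* and extends upstream, and coverage of the pair cannot be told apart. Downstream, a peak of 3494 to 4847 bases covered part of the noncoding genes *Gm34030* and *5033428I22Rik*.

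*Twist1* (chr12:33957671-33959829, plus strand), a factor of cranial and limb mesenchyme, was covered over 36.4% (LGE), 37.6% (CTX), 38.6% (MGE) and 41.6% (CGE) of its window. The peak over its start measured 4129, 4341, 4452 and 5157 bases in the same order, with the downstream edge between 1435 and 1541 in all lists and the upstream edge between -3680 and -2693. Its fold enrichment was 2.10 to 2.60. Additional peaks of 1040 to 1089 bases and 2878 to 3067 bases lay downstream, the nearer beginning at 4241 to 4269 and the farther at 8740 to 8827, and no annotated gene lay under either. The lists shared 87.2% to 97.1% of the covered bases in pairs, close to the values of *Mesp1*. The upstream edge of the *Twist1* start peak nevertheless moved by 987 bases between lists.

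*Tcf21* (chr10:22817281-22820174, minus strand), a factor of epicardium, kidney and visceral mesenchyme, had the widest span, with a covered percent of 38.2% in MGE, similar values in CGE (30.5%) and CTX (30.1%), and 21.3% in LGE. Its start peak measured 4198 bases in MGE, 3703 in CGE, 3557 in CTX and 2093 in LGE, a ratio of widest to narrowest of 2.01. In LGE this peak ended at 1039, with a separate peak of 324 bases at 2185 to 2508, where the other lists had continuous coverage to between 2363 and 2439. A downstream peak ran from 4012 to 8248 in MGE and from 5631 to 8100 in LGE, with CGE and CTX in between. The fold enrichment of the start peak was 2.64 in LGE and 2.27 in MGE, and that of the separate LGE peak was 1.42. The antisense transcript *Gm10824* overlaps the gene and the start peak. The joined domain over the start measured 11531 bases in MGE, 9580 in CGE, 9358 in CTX and 3562 in LGE. The low LGE value depends on the joining limit. In LGE the gap from 2508 to 5631 was just over 3 kb, so the downstream peak was not joined. In the other lists it was joined, and the domain ended at 8240 or 8248.

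**Figure D3:**
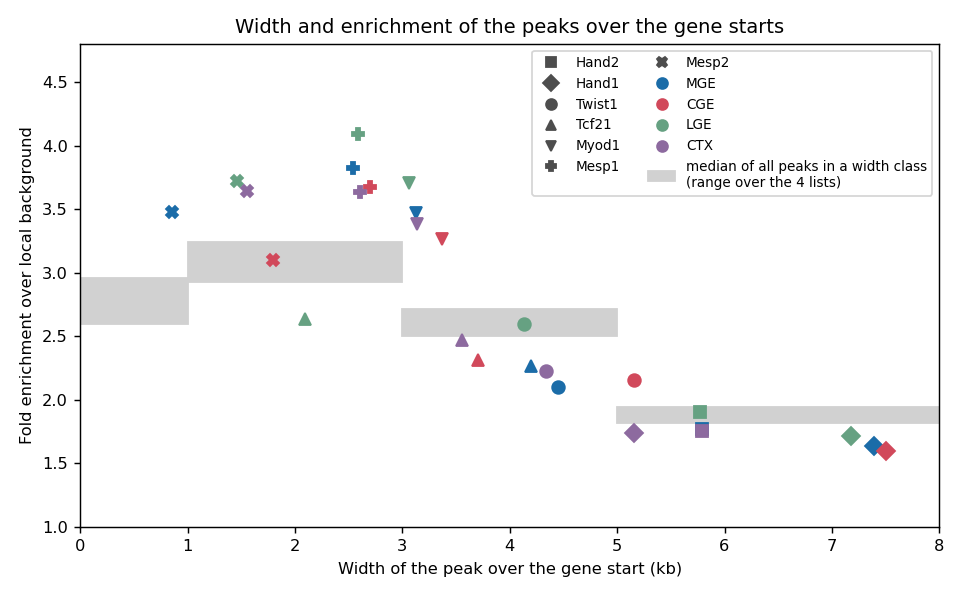
Width in kb (horizontal axis) and fold enrichment over local background (vertical axis) of each peak over a member's gene start. Symbols are genes, colors are lists, and grey boxes span the medians of all peaks of a width class over the 4 lists. The wide *Hand1* and *Hand2* peaks lie between 1.59 and 1.90, and the narrower *Mesp1* peaks between 3.64 and 4.09.

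Among the peaks over member starts, the widest had the lowest fold enrichment. Away from the starts, narrow member peaks could also be low, such as those of 309 to 324 bases at *Tcf21* (1.40 and 1.42). Over all peaks, the median fold enrichment by list was 2.60 to 2.96 under 1 kb, 2.93 to 3.24 at 1 to 3 kb, 2.50 to 2.71 at 3 to 5 kb and 1.82 to 1.94 at 5 kb or more. The start peaks of *Hand1* and *Hand2* lay below the median of peaks of 5 kb or more in each list where they were called. They stayed above the 5th percentile of that class, which was 1.54 to 1.62 by list. Because fold enrichment varied with width, their values do not compare directly with those of *Mesp1* or *Myod1*. The median widest peak over the members was 3013.5 bases (MGE), 3301 (CGE), 3030 (LGE, 8 members with a peak) and 3055.5 (CTX). For all genes with a peak in the window it was 1768, 2103, 1831 and 1833 bases.

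Between regions, the covered percent of most members differed by less than 10 points. A span of 5 points or more was reached by 8, and the share of all genes reaching it was not computed. The covered percent spanned 10 points or more over the 4 lists for 2 members, *Tcf21* (16.8 points) and *Mesp2* (11.8 points), compared with 2.02% of all genes. The shares of all genes given here include genes without a covered base. Among the related groups described below, 6 of 18 proneural and Olig genes and 3 of 22 upstream regulators spanned 10 points. So did 1 of 8 other mesodermal bHLH genes and 1 of 4 Id genes, but 0 of 3 E-protein genes and 0 of 25 muscle differentiation genes. By pair of lists, 1 member differed by 10 points or more between MGE and CGE (*Mesp2*, higher in CGE, with 0.869% of all genes past 10 points), 1 between MGE and LGE (*Tcf21*, higher in MGE, 0.423%) and 1 between CGE and LGE (*Mesp2*, higher in CGE, 0.492%). None did so between MGE and CTX (0.809% of all genes), CGE and CTX (0.85%) or LGE and CTX (0.565%). The *Mesp2* differences rested on weak peaks. With peaks of q under 0.001 they were -4.12 points for MGE minus CGE and 1.46 for CGE minus LGE. That of *Tcf21* between MGE and LGE was 15.5 to 24.0 points under the alternative peak lists, the highest value with joined peaks. The CGE list gave the highest value for 7 of the 10 genes and LGE the lowest for 5, with *Hand2* the 1 gene lowest in CGE. Of the 12122 genes with a covered base in any list, 42.6% were highest in CGE. With *Myf5* and *Myf6* counted once, CGE was highest for 6 of 9. With lists cut to equal covered bases these counts were again 7 of 10 and 6 of 9, and the share of all such genes was 32.2% of 10623. The CGE values exceeded those of LGE for 9 genes, or 8 of 9 with *Myf5* and *Myf6* counted once, as they did for 63.9% of the 12122 genes. The median difference was 5.38 points over the members, 5.14 with *Myf5* and *Myf6* counted once, and 0.309 points over these genes. The members were covered more, with means of 25.5% in CGE and 20.8% in LGE, beside 6.04% and 5.13% over the 12122 genes. Point differences therefore do not compare directly. With equal covered bases the median difference was 3.30 points over the members, 1.46 with *Myf5* and *Myf6* counted once, and 0.0106 over the 10623 genes. The means were then 24.3% and 20.7% over the members and 5.70% and 5.56% over the 10623 genes. In that setting CGE exceeded LGE for 9 members and for 50.7% of the 10623 genes.

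What the rule did not use included base composition. The CpG observed-to-expected ratio in the 1 kb around the start was 0.870 at *Twist1*, 0.745 at *Hand2*, 0.550 at *Mesp2*, 0.481 at *Myod1*, 0.469 at *Tcf21*, 0.410 at *Mesp1*, 0.406 at *Myf5*, 0.380 at *Myf6*, 0.344 at *Myog* and 0.340 at *Hand1*. The 3 genes with no start peak in any list were among the 4 lowest, but *Hand1*, the lowest, was covered in all lists. Over all genes, the start lay under a peak in all 4 lists for 3.65% of 8620 genes with a ratio below 0.4, 30.7% of 3060 genes between 0.4 and 0.6, and 18.96% of 10075 genes at 0.6 or above. Within the windows, CpG dinucleotides were denser under peaks than outside for 10 of 10 members, by 1.95 to 4.88 times. This was a general property of the mark in these lists, since 92.4% of 12122 genes with a covered base showed it, with a median ratio of 2.88 against 2.72 for the members. *Mesp1* had the densest covered sequence, 44.7 per kb against 13.2 outside, and *Twist1* the greatest contrast, 40.5 against 8.31. Of the CpG dinucleotides in the *Hand2* window, 82.2% lay under a peak of at least 1 list.

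**Figure D4:**
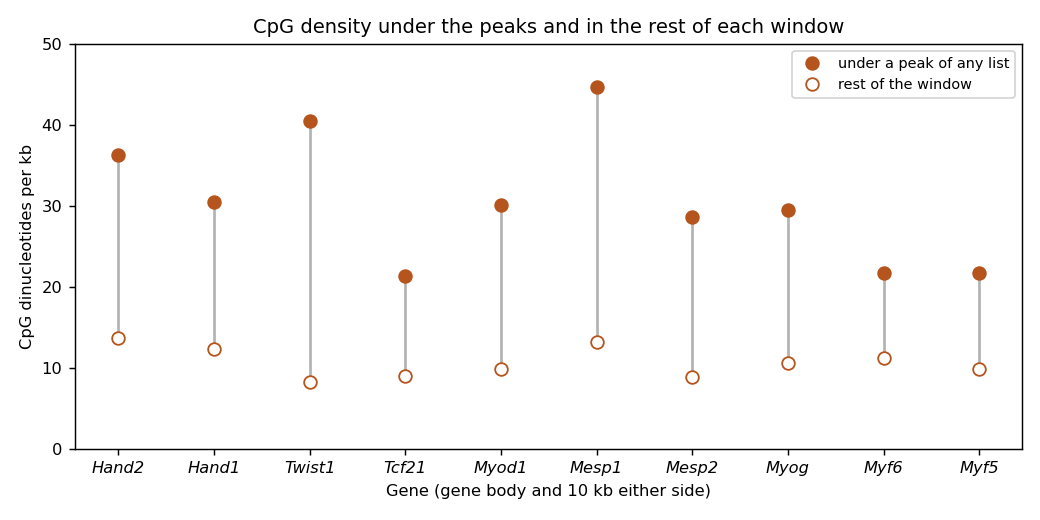
CpG dinucleotides per kb (vertical axis) in each gene's window, in bases under a peak of any list (filled points) and in the remaining bases (open points). The filled point is above the open point for all 10 genes, with *Mesp1* at 44.7 and 13.2 and *Twist1* at 40.5 and 8.31.

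Genes related by family or pathway were covered to differing extents. Of 8 other mesodermal bHLH genes, 6 had the start under a peak in all 4 lists and 1 in none. The highest mean covered percent was that of *Bhlha9* (26.96%), a limb gene, and *Msc* (18.5%), and the lowest that of *Msgn1* (1.22%) and *Tcf23* (0). The dimer partners had a low covered percent, but so did most genes. None of the 3 E-protein genes had a start peak in any list, where 19.2% to 22.8% of all genes had one by list. Their means were 1.89% for *Tcf3*, 0.199% for *Tcf4* and 0.0401% for *Tcf12*, beside a median of 0 for all genes in each list. Windows differ in length, so these values do not compare directly with those of the members. In CGE, a widest peak of 1478 bases at *Tcf4* went with a covered percent of 0.538%. Of the 4 Id genes, 1 was covered at the start in all lists and 1 in none, with means of 20.2% for *Id3*, 17.9% for *Id1*, 16.8% for *Id2* and 6.70% for *Id4*. Of the 18 proneural and Olig genes, 12 had a start peak in all lists and 3 in none. Their highest means were those of *Neurod2* (58.6%) and *Neurog1* (52.1%), and their lowest those of *Neurod6* (4.71%) and *Neurod4* (0.272%). With 2 kb windows, *Tcf21* of the muscle and mesoderm genes differed by 38.6 points between MGE and LGE. With 10 kb windows, none of the muscle and mesoderm genes spanned 20 points. No gene of the other related groups did so either, but 2 of the proneural and Olig genes did. *Neurog2*, a cortical progenitor factor, ranged from 22.9% in CTX to 43.9% in MGE, and *Olig2*, an eminence progenitor factor, from 33.9% in MGE to 54.3% in CTX. The share of all genes past 20 points was not computed, and whether the groups differ in such spans was not tested.

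Of 22 upstream regulators of muscle and mesoderm, 14 were covered at the start in all lists and 4 in none. *Lbx1*, a factor of migrating limb muscle precursors, and *Foxc1* were highest (64.7% and 61.2%), and *Eya1* (1.70%) and *Tbx6* (0) lowest. Among the structural and signaling genes that the myogenic factors switch on, starts were mostly uncovered, as they were among all genes. Of 25 skeletal muscle differentiation genes, 5 had a start peak in all lists, where 14.5% of all genes did. A start peak was absent from every list for 19, and by list 19.2% to 22.8% of all genes had one. The windows of 9 were free of peaks throughout, while 12122 of the 21755 protein-coding genes had a covered base in any list. *Mymx*, a fusion protein of myoblasts, and *Acta1*, skeletal actin, were highest (21.7% and 18.0%), while *Tnni2* and *Cav3* were at 0. The median covered percent of these 25 genes was 3.58%, 4.39%, 3.52% and 5.50% in MGE, CGE, LGE and CTX, beside 0 for all genes. For the upstream regulators it was 21.9%, 20.97%, 19.4% and 18.0%, for the other mesodermal bHLH genes 11.7%, 12.8%, 11.8% and 13.4%, for the E proteins 0.259%, 0.538%, 0.160% and 0, for the Id genes 14.3%, 19.2%, 16.9% and 17.3%, and for the proneural and Olig genes 24.3%, 24.9%, 22.3% and 22.6%. The median CpG observed-to-expected ratio at the start was 0.227 for the differentiation genes, 0.440 for the members and 0.629 for the upstream regulators, and its part in these differences was not tested.

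**Figure D5:**
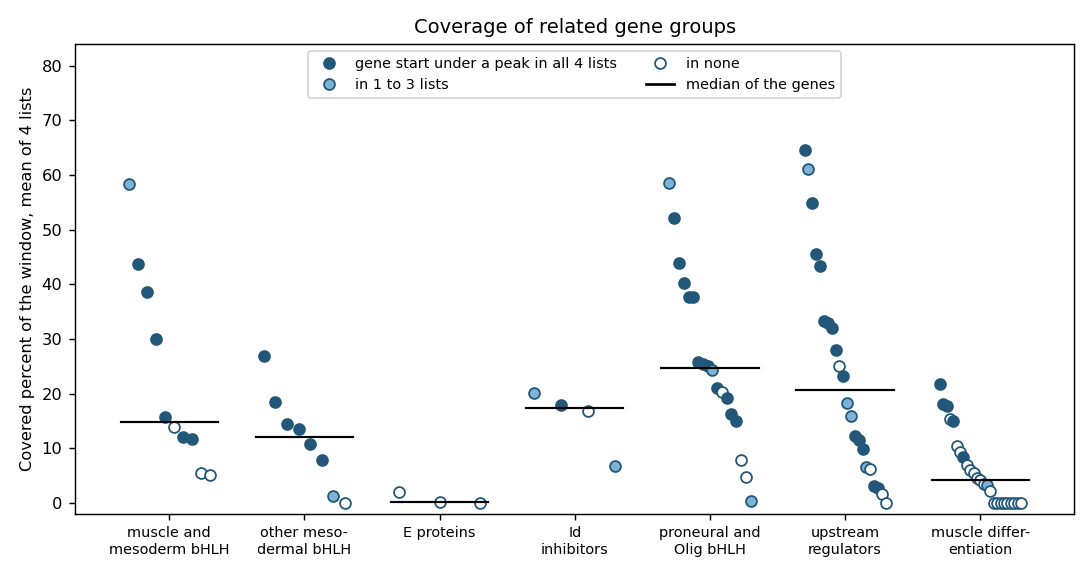
Mean covered percent over the 4 lists (vertical axis) of every gene in 7 groups. Dark, light and open points mark gene starts under a peak in all 4, in 1 to 3, or in no list, and black lines are medians over the genes of a group. The 3 E-protein genes lie at or below 1.89%, and 9 of the 25 muscle differentiation genes lie at 0.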

How the data were processed

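H3K27me3 CUT&Tag libraries of 11 samples (MGE 2, CGE 3, LGE 3, CTX 3) were assigned to regions from their labels. The authors aligned reads to GRCm38 (mm10) with Bowtie2, removed blacklisted regions and PCR duplicates (Picard), merged the samples of a region with samtools and called peaks with MACS in its broad mode, whose version and control are not given in the sources used here. The deposited lists give each peak's position, a fold enrichment (ratio to local background), the −log10 of its p-value and q-value, and a score. Of these, the p-value and score were not used. The highest q-value was 0.0994. Read counts are not in the lists, so no counting error is given.

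Windows were gene bodies in GENCODE M21 with 10 kb on either side, on chromosomes 1 to 19 and X, and coordinates count from 1. Covered percent, peak width, peak edges and CpG content were computed with Python 3.11.15 and numpy 2.4.6, and the coverage code was tested on simulated data. A difference of 10 points was the threshold for a span. Alternatives were stricter, joined or equalized lists, windows of 2 and 20 kb, other overlaps with the gene start and other thresholds. The members and gene lists were chosen with earlier results of these data known. All members were named, and from each related list the 2 highest and 2 lowest genes and any spanning 20 points. One marker gene is not reported here.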

Additional observations from a re-analysis of the deposited data

How the results depend on the processing

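The 4 lists were each made from merged samples, so leaving out a sample in turn was not run, and no spread between replicates bounds any difference given here. No paired analysis was possible because the lists are merged and no result comes from a test. Read depth differed between regions and was not modelled. The downstream peaks of *Mesp2* were weak, and window values can include sequence of neighbouring genes, as at *Myog* and *Hand2*.

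The median covered percent of the members depended most on the window. With 2 kb on either side it was 46.4% (MGE), 49.7% (CGE), 40.6% (LGE) and 47.1% (CTX), and with 20 kb 12.2%, 16.1%, 10.8% and 15.0%. With peaks of q under 0.001 it was 14.6% in CGE and 13.5% in CTX, with equal covered bases 14.6% in CGE and 17.1% in CTX, and with equal numbers of peaks 16.5% in CGE. CTX had the highest median with the deposited, joined and equalized lists, and CGE with q under 0.001 and with both other windows. MGE had the lowest median with all lists, but LGE the lowest with both other windows. The high and low sets of genes were separate only with the 10 kb window. In LGE, *Tcf21* was covered over 35.1% and *Myod1* over 46.1% with 2 kb, and over 11.4% and 15.0% with 20 kb.

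The count of genes spanning 10 points was 1 (*Tcf21*) with q under 0.001 and with equal covered bases, 5 with 2 kb windows and 0 with 20 kb windows. With 10 kb windows it was 8 at a threshold of 5 points and 0 at 20 points. The share of all genes with such a span was not computed for these settings. The *Tcf21* difference between MGE and LGE was 38.6 points with 2 kb windows and 8.99 with 20 kb. With equal covered bases, the *Mesp2* differences were -1.59 points for MGE minus CGE and 1.46 for CGE minus LGE.

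The count of gene starts covered in all 4 lists was 6 with q under 0.001 and with both equalized lists, and 7 with joined peaks, which added *Hand2*. It was 4 when 50% of the upstream 2 kb had to be covered and 7 when any base within 1 kb of the start sufficed. The shares of all genes under these other settings were not computed. The median widest peak was 3679.5, 3360, 3057 and 3344.5 bases in MGE, CGE, LGE and CTX with 2 kb windows, 3309.5 in LGE with joined peaks and 3268 in CTX with 20 kb windows.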
